A study of Homo sapiens with 6 samples.

Results

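Expression of 10 genes known as direct targets or feedback components of canonical Wnt signalling was followed in HCT116 cells, a human colorectal cancer line that carries an activating mutation of CTNNB1. The 10 members are AXIN2, MYC, ASCL2, NKD1, RNF43, ZNRF3, TCF7, TCF7L2, LEF1 and SP5. They were chosen by symbol, with earlier results of these data known, and all 10 were found among the 26255 genes of the series. The study silenced LINC01534, a long noncoding RNA, and asked which transcripts changed. Of 6 poly(A) RNA-seq libraries, 2 came from parent HCT116 cells, 2 from cells given siLINC01534-1 and 2 from cells given siLINC01534-2, a second siRNA against the same RNA. Nothing says that the parent cells were transfected, and libraries with a negative control siRNA were not analysed here. Transfection and the loss of LINC01534 therefore cannot be told apart in a comparison with parent. All cells are of 1 line, and nothing in the labels says whether the libraries of a group came from separate cultures, so p-values measure only the spread between these samples.

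In the canonical pathway, secreted WNT proteins bind Frizzled receptors with LRP5 or LRP6 and stop a destruction complex of APC, AXIN and kinases from marking beta-catenin for degradation. Beta-catenin, the product of CTNNB1, then enters the nucleus and binds TCF/LEF factors on DNA, which switch on target genes. In the intestinal crypt this keeps stem cells dividing, and in most colorectal cancers the pathway is on without a ligand. Several targets are inhibitors of the pathway and form negative feedback. AXIN2 rebuilds the destruction complex, RNF43 and ZNRF3 are ubiquitin ligases that remove Frizzled from the cell surface, and NKD1 binds Dishevelled. The transcription factors among the members are TCF7, TCF7L2, LEF1, SP5, MYC and ASCL2, the last a regulator of intestinal stem cells.

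Expression is given as FPKM, the number of fragments scaled by transcript length and library size, so that levels of different genes can be compared per length. The libraries held an estimated 8660000 to 10300000 reads. LINC01534, the RNA that both siRNAs target, was at 0.285 and 0.571 FPKM in the parent libraries and at 0 and 0.283 FPKM in the libraries labelled siLINC01534-1. In the libraries labelled siLINC01534-2 it was at 0.660 and 0.551 FPKM, which is not below parent, so the silencing that this label names does not show. LINC01534 was too low to test, and such low levels cannot show whether either siRNA silenced it. With siLINC01534-1, the 0.283 FPKM of replicate 2 was close to the 0.285 FPKM of parent replicate 1. By qRT-PCR, the paper reported LINC01534 reduced by both siRNAs in HCT116 cells, relative to a negative control siRNA and not to parent cells. Epithelial markers summed to 3458 to 3522 FPKM in parent, 2927 to 2932 FPKM with siLINC01534-1 and 3335 to 3521 FPKM in the libraries labelled siLINC01534-2, with 1 of 7 under a mean of 1 FPKM, while 4 of 5 fibroblast, 4 of 5 immune and 4 of 4 endothelial markers were under 1 FPKM. Of these, 1 fibroblast and 2 immune markers were at 0 in all libraries, and the endothelial sum was at most 0.148 FPKM. The fibroblast sum was 3.11 to 3.14 FPKM in parent, 5.36 to 6.08 with siLINC01534-1 and 3.85 to 4.33 in the libraries labelled siLINC01534-2, and the immune sum was 2.98 to 3.94, 3.58 to 3.99 and 6.30 to 6.47 FPKM. A few genes set these sums. KRT8, the highest epithelial marker, had means of 1708 FPKM in parent and 1346 FPKM with siLINC01534-1. KRT18 was at 996 and 862.5 FPKM and KRT19 at 553 and 487 FPKM in the same order. KRT8, KRT18 and KRT19 were each lower with siLINC01534-1 (limma adjusted p = 0.00325, 0.00573 and 0.00739). EPCAM was at 202 and 200 FPKM, and CDH1 and CDX2 were not lower. Most of the fibroblast sum was COL1A1 and most of the immune sum was CD68. The part of these differences in the results was not tested. In bulk RNA, fewer cells that express a gene and less of its RNA per cell cannot be told apart.

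The members spanned a wide range of levels in parent cells. MYC was the highest at 188 FPKM (SD 5.71, n = 2), followed by TCF7L2 at 36 FPKM (SD 2.15), TCF7 at 11 FPKM (SD 0.166) and RNF43 at 7.96 FPKM (SD 0.513). AXIN2 and ZNRF3 came next at 7.0 and 6.78 FPKM, and their libraries overlapped. NKD1 at 1.10 FPKM and SP5, which had 0.568 and 1.03 FPKM, also overlapped. LEF1 was listed at 0 in all 6 libraries, and ASCL2 was listed at 0 in 5 of them and at 0.0698 FPKM, the worth of about 0.8 reads, in the other. Each neighbouring pair above AXIN2 in this order was separated in the parent libraries.

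**Figure D1:**
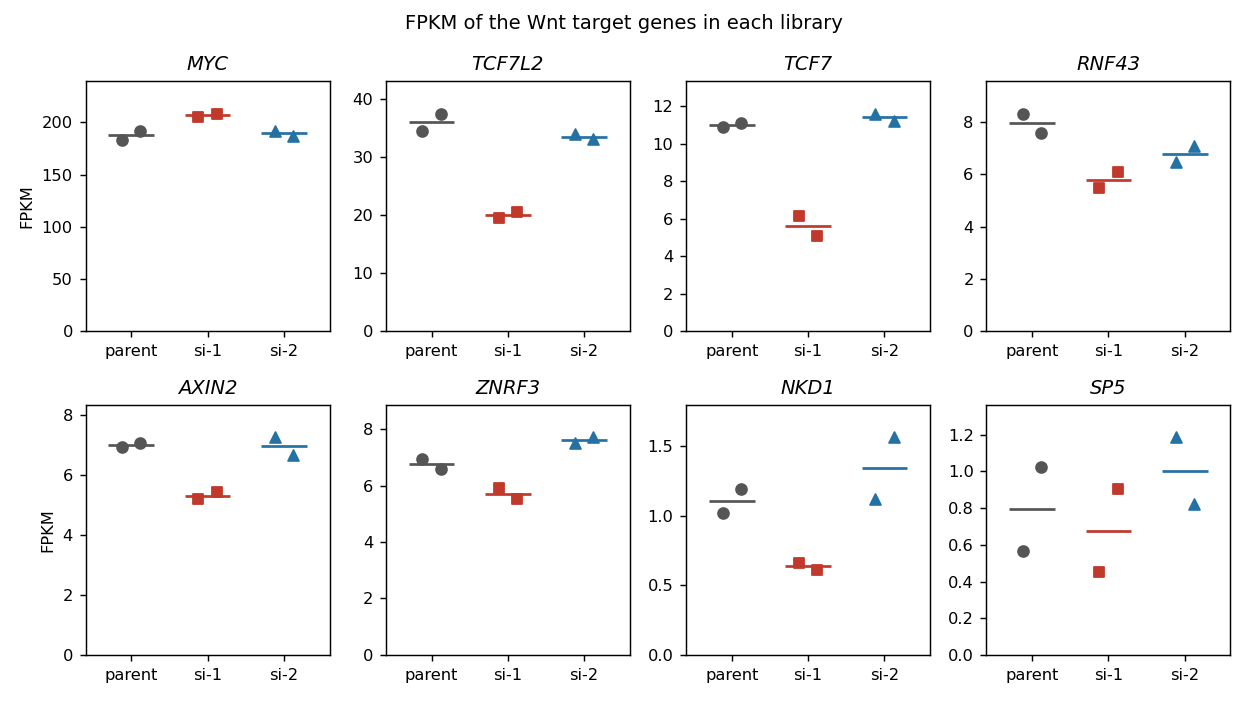
FPKM (vertical axes, linear and starting at 0) of the 8 members above 0.1 FPKM in each library, with a point per library and a line at the mean of 2 libraries, for parent cells, siLINC01534-1 (si-1) and siLINC01534-2 (si-2). The siLINC01534-1 points lie below both other groups for TCF7, TCF7L2, AXIN2, NKD1, ZNRF3 and RNF43 and above them for MYC, while the SP5 groups overlap.

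The files were compared on the log2(FPKM + 1) scale for genes with a mean of at least 1 FPKM, 12203 in all, with limma and Benjamini-Hochberg adjustment, and a call required an adjusted p under 0.05. Changes of low genes are understated on this scale. Of the 10 members, 7 passed this filter on low values. NKD1 passed it narrowly, and ASCL2, LEF1 and SP5 were not tested.

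With siLINC01534-1, 5 of the 7 tested members were lower than in parent and 1 was higher. Over all tested genes, 24.5% were called lower and 21.8% higher in the same comparison. The 2 TCF factors fell most, RNF43, AXIN2 and ZNRF3 fell less, MYC was slightly higher, and NKD1 did not pass. The median log2 difference was -0.36 for the tested members and 0.00031 for all tested genes. Both siLINC01534-1 libraries lay outside the range of the parent libraries for 7 of 7 tested members, against 75.7% of all tested genes.

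LINC01534, too low to test, was not below parent in the libraries labelled siLINC01534-2, and the part of this in the values that follow was not tested. In these libraries, 0 of the 7 tested members passed the threshold of limma, and 1, RNF43, had an unadjusted p under 0.05. In the same comparison, 22.8% of all tested genes passed in either direction, 11.8% lower and 11.1% higher. With 7 members, a count of 0 does not set them apart from all tested genes. The median log2 difference of the tested members was 0.01, beside 0.0018 for all tested genes. The libraries labelled siLINC01534-2 lay outside the parent range for 4 of the 7, with RNF43 and TCF7L2 below it and ZNRF3 and TCF7 above it, against 64.9% of all tested genes.

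**Figure D2:**
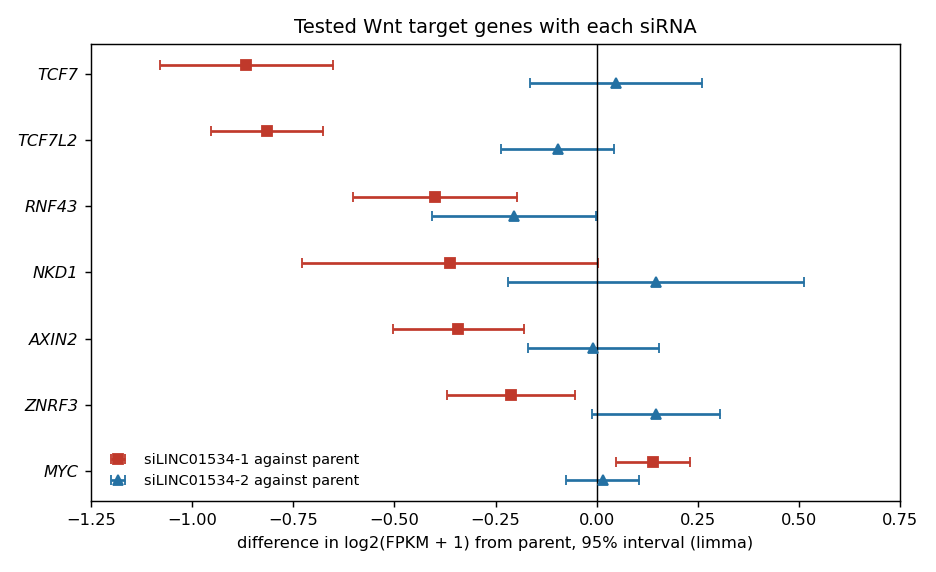
Difference from parent in log2(FPKM + 1) (horizontal axis) of the 7 tested members with siLINC01534-1 (squares) and siLINC01534-2 (triangles), where bars are 95% intervals from limma and each group has 2 libraries. The siLINC01534-1 intervals of TCF7 and TCF7L2 end at -0.65 and -0.68 and do not meet those of siLINC01534-2, and of the siLINC01534-2 intervals that of RNF43 ends just below 0.

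TCF7L2, the main TCF factor of the intestinal epithelium, had 34.5 and 37.5 FPKM in parent, 19.5 and 20.5 FPKM with siLINC01534-1, and 34.1 and 33.1 FPKM in the libraries labelled siLINC01534-2. Both siLINC01534-1 libraries were far below the other 4, at 0.556 of the parent mean. The log2 difference from parent was -0.81 (SE 0.0555, limma adjusted p = 0.000302) with siLINC01534-1 and -0.10 (95% interval -0.24 to 0.04, adjusted p = 0.263) in the libraries labelled siLINC01534-2. The difference between the siRNAs was itself past the threshold, at -0.72 (limma adjusted p = 0.000589).

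TCF7, which encodes a factor also known from T cells and is itself a Wnt target, had 10.9 and 11.1 FPKM in parent, 6.15 and 5.09 FPKM with siLINC01534-1, and 11.6 and 11.2 FPKM in the libraries labelled siLINC01534-2. It was at 0.51 of the parent mean in the siLINC01534-1 libraries, and no library labelled siLINC01534-2 was below parent. The log2 differences were -0.87 (SE 0.0853, limma adjusted p = 0.000978) and 0.05 (95% interval -0.17 to 0.26, adjusted p = 0.723). Between the siRNAs, TCF7 differed by -0.91 (limma adjusted p = 0.00105). The calls of TCF7 and TCF7L2 held under every alternative computed for these 2 comparisons.

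TCF7L1, the third factor of the family expressed here, is no member but binds the same sites. It had 4.96 and 4.97 FPKM in parent, 4.43 and 4.31 FPKM with siLINC01534-1 and 5.07 and 4.02 FPKM in the libraries labelled siLINC01534-2, and its change with siLINC01534-1 did not pass (log2 difference -0.15, limma adjusted p = 0.280). Summed over TCF7, TCF7L1, TCF7L2 and LEF1, the family had 52.0 FPKM (SD 2.33, n = 2) in parent, 30.0 FPKM (SD 0.135) with siLINC01534-1 and 49.6 FPKM (SD 1.72) in the libraries labelled siLINC01534-2. TCF7L2 made up 69.3%, 66.7% and 67.8% of these sums, so that its share stayed within a narrow range while the total with siLINC01534-1 was 0.577 of parent.

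Among the feedback inhibitors, AXIN2, often used as the reporter gene of the pathway, had 6.94 and 7.06 FPKM in parent, 5.22 and 5.42 FPKM with siLINC01534-1, and 7.26 and 6.67 FPKM in the libraries labelled siLINC01534-2. The siLINC01534-1 libraries were lower than all others, and the libraries labelled siLINC01534-2 fell on either side of parent. AXIN2 fell by 0.34 on the log2 scale with siLINC01534-1 (SE 0.0646, limma adjusted p = 0.00895), and its difference was -0.0081 in the libraries labelled siLINC01534-2 (95% interval -0.17 to 0.15). The difference between the siRNAs was -0.33 (limma adjusted p = 0.0111). The first call was lost without parent replicate 2 (adjusted p = 0.054) and without siLINC01534-1 replicate 1 (0.0522), and the second without siLINC01534-1 replicate 1 (0.0611) and without siLINC01534-2 replicate 1 (0.0569).

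RNF43 had 8.32 and 7.59 FPKM in parent, 5.49 and 6.09 FPKM with siLINC01534-1, and 6.48 and 7.07 FPKM in the libraries labelled siLINC01534-2. As for TCF7L2, all libraries of both siRNAs were below parent. The log2 difference was -0.40 (SE 0.0809, limma adjusted p = 0.0113) with siLINC01534-1 and -0.20 (95% interval -0.41 to -0.0023, adjusted p = 0.129) in the libraries labelled siLINC01534-2, and the siRNAs did not differ past the threshold (-0.20, adjusted p = 0.106). The call with siLINC01534-1 was lost without parent replicate 1 (adjusted p = 0.0662) and without siLINC01534-1 replicate 1 (0.0644).

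ZNRF3, the paralogue of RNF43, had 6.95 and 6.60 FPKM in parent, 5.91 and 5.51 FPKM with siLINC01534-1, and 7.52 and 7.71 FPKM in the libraries labelled siLINC01534-2. The 2 siRNAs thus lay on opposite sides of parent. Its fall with siLINC01534-1, -0.21 on the log2 scale (SE 0.0633, limma adjusted p = 0.0396), was lost without any 1 of the 6 libraries (adjusted p = 0.0665 to 0.156), without the filter on low values (0.0778) and when only these 2 groups were fitted (0.0744). In the libraries labelled siLINC01534-2 the difference was 0.15 (95% interval -0.011 to 0.31, adjusted p = 0.154). Between the siRNAs it was -0.36 (limma adjusted p = 0.00800).

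NKD1 had 1.02 and 1.19 FPKM in parent, 0.660 and 0.612 FPKM with siLINC01534-1, and 1.12 and 1.56 FPKM in the libraries labelled siLINC01534-2. The siLINC01534-1 libraries were the lowest, at 0.576 of the parent mean, but the test with siLINC01534-1 was not passed (log2 difference -0.36, 95% interval -0.73 to 0.0027, limma adjusted p = 0.0938). It was passed with a spread that does not depend on the level (0.0422) and with only these 2 groups in the fit (0.0392). In the libraries labelled siLINC01534-2 the difference was 0.15 (95% interval -0.22 to 0.51). NKD1 was lower with siLINC01534-1 than in the libraries labelled siLINC01534-2, by a log2 difference of -0.51 (limma adjusted p = 0.0387). That call was lost without either siLINC01534-1 library (0.0818 and 0.0958) and without siLINC01534-2 replicate 2 (0.0985).

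MYC, which drives growth and proliferation, had 184 and 192 FPKM in parent, 205 and 208 FPKM with siLINC01534-1, and 192 and 187 FPKM in the libraries labelled siLINC01534-2. It was the tested member that rose with siLINC01534-1, by 1.10 times (log2 difference 0.14, SE 0.0364, limma adjusted p = 0.0265), while the difference in the libraries labelled siLINC01534-2 was near 0 (0.015, 95% interval -0.076 to 0.11). Between the siRNAs, MYC differed by 0.12 (limma adjusted p = 0.0412). The rise did not pass with a spread that does not depend on the level (adjusted p = 0.0665), without parent replicate 1 (0.104) or without either siLINC01534-1 library (0.0757 and 0.107). The difference between the siRNAs did not pass without any 1 of the 4 siRNA libraries (0.0802 to 0.148).

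SP5, a repressor that is induced by Wnt signalling in many cell types, had 0.568 and 1.03 FPKM in parent, 0.452 and 0.904 FPKM with siLINC01534-1, and 1.19 and 0.824 FPKM in the libraries labelled siLINC01534-2. The 3 groups overlapped. These values are worth about 7.3 to 19 reads a library, and no difference was tested at this depth.

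The direct comparison of the siRNAs called 5 of the 7 tested members lower with siLINC01534-1 and 1 higher, against 22.3% and 19.5% of all tested genes. The lower ones were AXIN2, NKD1, ZNRF3, TCF7 and TCF7L2, and the higher one was MYC. Without siLINC01534-1 replicate 1, 3 of the 7 passed in this comparison and 2 of the 7 in that of siLINC01534-1 with parent. Without parent replicate 1, 3 passed in the latter. When the mean of both siRNAs was set against parent, 3 of the 7 were lower, against 20.1% of all tested genes: RNF43 (-0.30, limma adjusted p = 0.0225), TCF7 (-0.41, 0.0102) and TCF7L2 (-0.46, 0.00189). For TCF7 and TCF7L2 this mean joins a fall with siLINC01534-1 and a difference near 0 in the libraries labelled siLINC01534-2. It depended on single parent libraries, since 1 of the 7 passed without either of them.

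The stretches of sequence that siLINC01534-1 and the members share are shown because 6 of the 7 tested members differed between the siRNAs. An siRNA can act on other transcripts through bases 2 to 8 of its antisense strand, the seed. The target of siLINC01534-1 lies in LINC01534, which GENCODE lists as ZNF567-DT, on the minus strand at chr19:37177640-37177658 (GRCh37), exonic in 6 of 6 transcripts. That of siLINC01534-2 is on the same strand at chr19:37177588-37177606. The 3′ UTR of each gene's longest coding GENCODE transcript was searched for matches to the seeds. The capitals mark the 7 bases that pair with the seed in each target and in each site.
siLINC01534-1 target: atcgagtggtgGAATAAAa
siLINC01534-2 target: gaacgaggcttTTCGAGTt
TCF7 site, chr5:133483868-133483896, plus strand: tttaaacatgaGAATAAAgatacttttta
TCF7L2 site, chr10:114927349-114927377, plus strand: atttttgtaatGAATAAAtgttcatgctg
ZNRF3 site, chr22:29452437-29452465, plus strand: ggagatcactgGAATAAAataaccgatgg
NKD1 first site, chr16:50670608-50670636, plus strand: gttctttaccaGAATAAAtgcatttctat
NKD1 second site, chr16:50682566-50682594, plus strand: tttgagcccaaGAATAAAgactacagttc

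The letters GAATAAA hold the common polyadenylation signal AATAAA, and they were found in the 3′ UTR of 2833 of 10579 tested genes, or 26.8%. TTCGAGT was found in 202, or 1.91%. The TCF7 match starts at base 1667 of a 3′ UTR of 1689 bases and the TCF7L2 match at base 1629 of 1706, close to the end of each transcript. The ZNRF3 match starts at base 2838 of 3866. The NKD1 matches start at bases 2927 and 14885 of an annotated 3′ UTR of 15468 bases, which may be longer than that of the authors' gene models.

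Of the 5 members that were lower with siLINC01534-1, 3 held GAATAAA, namely TCF7, TCF7L2 and ZNRF3. AXIN2 and RNF43, also lower, held none, nor did MYC, which was higher, or ASCL2, LEF1 and SP5, which were not tested. NKD1, which did not pass, held 2 matches to GAATAAA and 1 to TTCGAGT, the sole match to the siLINC01534-2 seed among the members. The part of these matches in the changes was not tested.

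One member promoter is shown because it holds the sequence that TCF/LEF factors bind. Promoters from 250 bases before to 50 after the start of transcription, from RefSeq (GRCh38.p14), were at hand for 5 of the 10 members, LEF1, RNF43, SP5, TCF7 and TCF7L2. They were searched on both strands for CTTTGAT and CTTTGAA, which cannot overlap each other on the same strand. Of 35116 promoters of all genes, 2409 held either (6.86%), and among the 9 promoters of the 5 members that of SP5 alone did. It holds 3 matches, in capitals, which start at -148 and -84 (CTTTGAA on the minus strand, read as TTCAAAG) and at -109 (CTTTGAT on the plus strand) from the start of transcription.
SP5 promoter, chr2:170715087-170715386, plus strand: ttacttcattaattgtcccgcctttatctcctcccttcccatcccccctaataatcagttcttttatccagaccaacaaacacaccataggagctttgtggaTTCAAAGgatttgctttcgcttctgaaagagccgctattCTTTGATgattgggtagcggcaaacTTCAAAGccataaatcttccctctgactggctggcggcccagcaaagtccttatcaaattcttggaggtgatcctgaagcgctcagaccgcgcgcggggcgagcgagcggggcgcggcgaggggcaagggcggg

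SP5 was nevertheless among the lowest members in these cells, as its values above show. A match in these windows is a description of letters and not a binding site.

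For orientation in GRCh37, AXIN2 is on chromosome 17 between 63524681 and 63557766 and RNF43 on the same chromosome between 56431037 and 56494956, both on the minus strand. TCF7 lies on the plus strand of chromosome 5 from 133450372 to 133487556, TCF7L2 on the plus strand of chromosome 10 from 114710006 to 114927437, ZNRF3 on the plus strand of chromosome 22 from 29279560 to 29453476 and NKD1 on the plus strand of chromosome 16 from 50582307 to 50683160. Each is a protein-coding gene.

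CTNNB1, the gene of beta-catenin, was also lower with siLINC01534-1 than in both other groups. It had 143 and 141 FPKM in parent, 92.4 and 98.3 FPKM with siLINC01534-1, and 147 and 147 FPKM in the libraries labelled siLINC01534-2. The siLINC01534-1 libraries were at 0.672 of the parent mean (log2 difference -0.57, SE 0.0395, limma adjusted p = 0.000321). The difference in the libraries labelled siLINC01534-2 was 0.05 (adjusted p = 0.390), and the difference between the siRNAs was -0.62 (adjusted p = 0.000352). Its 3′ UTR held 0 matches to either seed.

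Beside the members, 112 genes of the pathway in 6 lists were examined, and 72 of them were tested. With siLINC01534-1, 20 of the 72 were lower (27.8%) and 12 higher (16.7%), near the shares over all tested genes given above. Of all tested genes, 11.8% were lower and 11.1% higher in the libraries labelled siLINC01534-2. In these libraries, 6 of the 72 were lower (8.33%) and 15 higher (20.8%). These 21 became 9 without either parent library and 10 without either library labelled siLINC01534-2. Between the siRNAs, 22.3% of all tested genes were lower with siLINC01534-1 and 19.5% higher. Of the 72, 26 (36.1%) were lower and 9 (12.5%) higher, and their median log2 difference was -0.12. These 35 became 23 without siLINC01534-1 replicate 1 or without siLINC01534-2 replicate 1. GAATAAA, held by 26.8% of the tested genes searched, was in 10 of the 20 lower and 1 of the 12 higher with siLINC01534-1. It was in 7 of the 40 that did not pass. Its share among all lower or all higher genes was not computed, and its part in the changes was not tested. TTCGAGT was held by 1 of the 72, beside 1.91% of the tested genes searched.

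**Figure D3:**
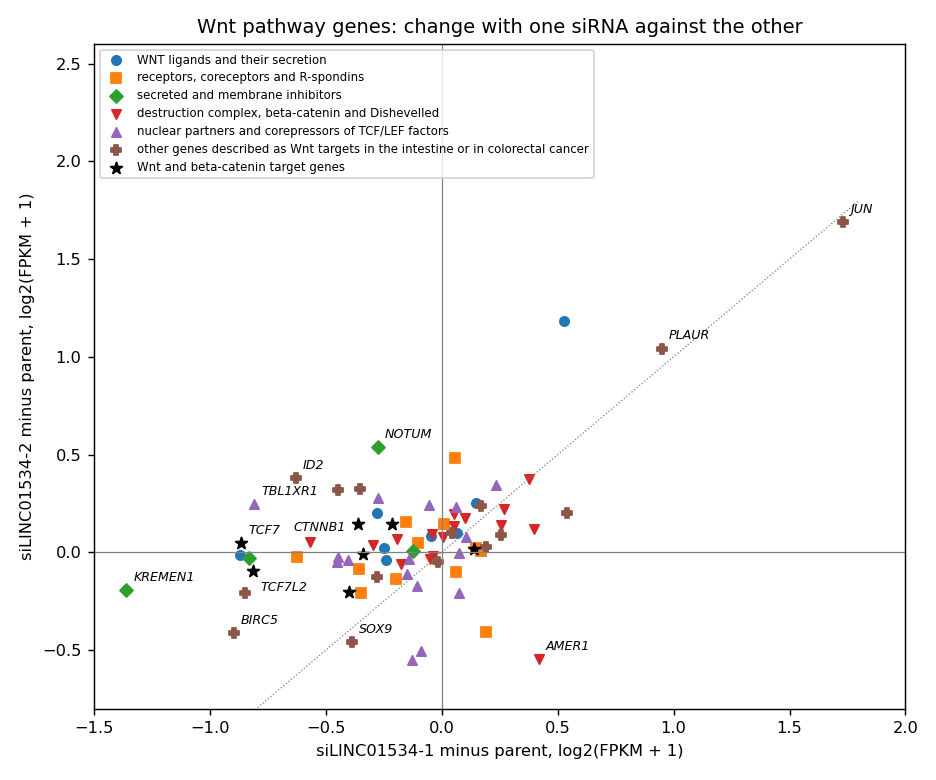
Difference from parent in log2(FPKM + 1) with siLINC01534-1 (horizontal axis) and siLINC01534-2 (vertical axis) for the 72 tested genes of the 6 lists (symbols by list) and the 7 tested members (stars), with a dotted line where both are equal. Both axes use the same 2 parent libraries. JUN and PLAUR lie at the upper right near the line, while TCF7, TCF7L2, CTNNB1 and KREMEN1 lie to the left near the horizontal axis.

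Over all tested genes, 24.5% were lower and 21.8% higher with siLINC01534-1, the shares to set beside each list that follows. In the libraries labelled siLINC01534-2 these shares were 11.8% and 11.1%. Among the ligands and their secretion factors, 1 of 8 tested was lower with siLINC01534-1 (12.5%). In the libraries labelled siLINC01534-2, 1 of 8 was higher (12.5%). These were WNT7B and WNT9A, named after their values were seen. WNT7B had 5.36 and 6.39 FPKM in parent, 2.94 and 2.57 FPKM with siLINC01534-1 and 6.06 and 5.52 FPKM in the libraries labelled siLINC01534-2. WNT9A had 2.68 and 2.21, 4.79 and 3.24, and 7.88 and 5.83 FPKM in the same order. Of 13 receptors, co-receptors and R-spondin pathway genes, 2 were lower (15.4%) and 1 higher (7.69%) with siLINC01534-1. In the libraries labelled siLINC01534-2, 1 was lower and 1 higher (7.69% each).

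Of 4 tested inhibitors at the cell surface or outside the cell, 3 were lower with siLINC01534-1 (75%, beside 24.5% of all tested genes). In the libraries labelled siLINC01534-2, 1 was higher (25%, beside 11.1%). Those named here were again named after their values were seen. KREMEN1, a receptor of the DKK inhibitors, had 7.33 and 7.06 FPKM in parent, 2.45 and 1.95 FPKM with siLINC01534-1 and 6.03 and 6.31 FPKM in the libraries labelled siLINC01534-2. Its log2 difference was -1.36 (limma adjusted p = 0.000309) with siLINC01534-1 and -0.19 (adjusted p = 0.197) in the libraries labelled siLINC01534-2. NOTUM, a secreted enzyme that inactivates WNT proteins and is itself a Wnt target, had 2.51 and 2.17, 1.96 and 1.56, and 3.88 and 3.80 FPKM in the 3 groups. It rose in the libraries labelled siLINC01534-2 (log2 difference 0.54, limma adjusted p = 0.0238), a call that was lost without any 1 of the parent or siLINC01534-2 libraries.

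Of 16 genes of the destruction complex, beta-catenin and Dishevelled, 3 were lower (18.8%) and 5 higher (31.2%) with siLINC01534-1. In the libraries labelled siLINC01534-2, 1 was lower (6.25%) and 3 higher (18.8%). TNKS2, a tankyrase that marks AXIN for degradation, was higher in the libraries of each siRNA, at 1.33 times parent in both (limma adjusted p = 0.00223 and 0.00665). DVL3, a Dishevelled protein, was at 1.22 and 1.17 times parent (limma adjusted p = 0.0140 and 0.0480), calls that were both lost without either parent library. The first was also lost without siLINC01534-1 replicate 1 (adjusted p = 0.0515), and the second without either library labelled siLINC01534-2 (0.125 and 0.180), without the filter on low values (0.0779), with quantile normalization (0.0705), with a replicate block (0.0793) and with a spread that does not depend on the level (0.0697).

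Of 16 nuclear partners and corepressors, 5 were lower (31.2%) and 1 higher (6.25%) with siLINC01534-1. In the libraries labelled siLINC01534-2, 2 were lower (12.5%) and 5 higher (31.2%). BCL9L, which bridges beta-catenin to its coactivators, was higher with each siRNA, at 1.18 and 1.28 times parent (limma adjusted p = 0.00524 and 0.00438).

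Of 15 other targets of the pathway in the intestine or colorectal cancer, 6 were lower (40%) and 5 higher (33.3%) with siLINC01534-1. In the libraries labelled siLINC01534-2, 2 were lower (13.3%) and 4 higher (26.7%). JUN, a subunit of AP-1, was at 8.18 and 7.92 FPKM in parent, 28.5 and 29.5 FPKM with siLINC01534-1 and 27.2 and 29.3 FPKM in the libraries labelled siLINC01534-2 (3.6 and 3.51 times parent, limma adjusted p = 4.67e-05 and 0.000148). PLAUR, the urokinase receptor, was at 1.98 and 2.12 times parent (limma adjusted p = 0.00105 and 0.00276). BIRC5, an inhibitor of apoptosis that is also needed in mitosis, was at 0.532 and 0.749 of parent (limma adjusted p = 5.64e-05 and 0.00173). SOX9, a crypt transcription factor, was at 0.755 and 0.717 of parent (limma adjusted p = 0.00213 and 0.00409). CCND1, with the smallest mean change of the 5, was at 1.125 and 1.181 times parent (limma adjusted p = 0.0230 and 0.0161). These 5 of the 15 moved the same way with both siRNAs past the threshold, which no tested member did. The share of all tested genes that did so was not computed, so these counts do not set the lists apart. Both comparisons share the 2 parent libraries. LGR5, the stem cell marker of the crypt, did not exceed 0.0268 FPKM in any library and was not tested.

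The 3 genes whose levels were most like that of AXIN2 over the 6 libraries, among 12202 others, were COMMD8 (Pearson r = 0.996), AAAS (0.995) and MARVELD3 (0.995). With 6 points in 3 groups and so many genes, values this high are a description, and these points share the same libraries and depth.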

How the data were processed

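RNA-seq libraries of parent HCT116 cells and of cells given siLINC01534-1 or siLINC01534-2 were analysed, 2 per group. The authors mapped the reads to hg19 and deposited FPKM per gene symbol. The submitters' processing notes name TopHat2 2.0.13, Bowtie2 2.2.3, SAMtools 0.1.19 and Cufflinks 2.2.1. The annotation they used is not given in the sources used here. The labels give 2 libraries per group and the paper's methods triplicate cultures, and the RNA kits named differ.

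The 10 members and the pathway lists were chosen with earlier results of these data known. From the deposited FPKM, log2(FPKM + 1) was fitted in limma 3.58.1 (R 4.3.3; lmFit, contrasts.fit and a trended eBayes), giving each group 1 mean, for the 12203 genes that reached 1 FPKM on average. Tests were two-sided with Benjamini-Hochberg adjustment over all genes and a threshold of 0.05. The fit was checked on simulated data. Times parent are ratios of mean FPKM.

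Named were all members, CTNNB1, and up to 4 genes per list past the threshold in the same direction with each siRNA, by size of the mean change. Genes named otherwise were chosen after their values were seen. The files hold no counts, so depth was estimated from the steps of low values in 2112 genes with 1 transcript, with 200 nt taken off their length. Alternatives were another pseudocount, no filter, 2 other scalings, a replicate block, no trend, only the groups compared, both siRNAs as 1 group, and each library left out. Python 3.11.15 and pandas 2.3.3 were used for sequences.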

Additional observations from a re-analysis of the deposited data

Results flagged for a closer look

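For 6 of the 7 tested members, the effects of the 2 siRNAs differed from each other in a direct test with limma (2 libraries a group). In the same test, 22.3% of all tested genes were lower with siLINC01534-1 and 19.5% higher. On the log2(FPKM + 1) scale, siLINC01534-1 minus siLINC01534-2 was -0.91 for TCF7, -0.72 for TCF7L2, -0.51 for NKD1, -0.36 for ZNRF3, -0.33 for AXIN2 and 0.12 for MYC. RNF43 was the tested member for which this difference did not pass. LINC01534 itself was lower with siLINC01534-1 than in the libraries labelled siLINC01534-2, at a level of under 1 FPKM in all libraries. It was too low to test, and at this level the direction is uncertain.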

How the results depend on the processing

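Of 364 member values under the alternatives, 314 kept direction and side of the threshold, 40 lost and 5 gained a call, and 5 changed sign. The calls of TCF7 and TCF7L2 with siLINC01534-1, against parent and against siLINC01534-2, were kept in all. Deviations from the group mean correlated little between libraries of the same replicate number (0.114, 0.027 and -0.0456). With 2 libraries per group this cannot show whether the numbers pair samples, and the labels do not say. With a replicate block, MYC (adjusted p = 0.0533) and ZNRF3 (0.0618) lost their calls against parent with siLINC01534-1, leaving 4 of 6 members, and between the siRNAs MYC (0.0774) and NKD1 (0.0588) lost theirs. Leaving out 1 library in turn, 2 to 5 members passed with siLINC01534-1 against parent, 3 to 6 between the siRNAs and 1 to 3 for the mean of both. Of the pathway genes, 9 to 18 passed with siLINC01534-2 (21 with all libraries), 23 to 28 between the siRNAs (35) and 15 to 24 for the mean (29). For the mean of both, 5 members passed with quantile normalization, and with the 4 siLINC01534 libraries as 1 group 0 members and 4 pathway genes did, where the difference between the siRNAs adds to the spread. Sign changes came from leaving out 1 library, at values near 0. With siLINC01534-2 against parent these ranged from -0.061 to 0.045 for AXIN2, -0.016 to 0.046 for MYC, -0.25 to 0.026 for TCF7L1, -0.068 to 0.0054 for KREMEN2 and -0.12 to 0.094 for WNT7B, and for the mean of both from -0.066 to 0.00061 for ZNRF3. The 2 libraries per group limit precision, and SP5, ASCL2 and LEF1 were too low to test.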

Other observations

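Of the 72 tested pathway genes beside the members, 4 passed the threshold in opposite directions with the 2 siRNAs, and they were noticed after the values were seen. How many of all tested genes passed in opposite directions was not computed. TBL1XR1, a component of a corepressor complex that also serves beta-catenin, had 24.2 and 22.3 FPKM in parent, 12.7 and 13 FPKM with siLINC01534-1 and 27.0 and 28.4 FPKM in the libraries labelled siLINC01534-2. Its log2 differences from parent were -0.81 and 0.25 (limma adjusted p = 0.000330 and 0.0329), and the second call was lost in 10 of its alternatives. Its 3′ UTR held 4 matches to GAATAAA. ID2, an inhibitor of bHLH factors, had 50.1 and 52.2, 31.4 and 34.1, and 66.8 and 66.8 FPKM (log2 differences -0.63 and 0.38). TLE2, a Groucho corepressor that binds TCF factors, had 8.83 and 9.03, 7.19 and 7.24, and 10.8 and 11.3 FPKM (-0.27 and 0.28). AMER1, which binds APC and the destruction complex, went the other way, with 2.53 and 2.26, 3.49 and 3.58, and 1.21 and 1.45 FPKM (0.42 and -0.54). The calls of ID2, TLE2 and AMER1 in the libraries labelled siLINC01534-2 were each lost without at least 1 library.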
